A study of Mus musculus with 18 samples.

Results

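The miR-200 family is a group of 5 microRNA hairpins that lie in 2 genomic clusters, miR-200b, miR-200a and miR-429 in one and miR-200c and miR-141 in the other. Each hairpin yields a mature miRNA from its 3p arm and one from its 5p arm, and these 10 mature miRNAs were taken by name from the 1431 that the count tables list. In 9 of the 10 the counts were high enough to enter the test across all miRNAs, which covered 642 names, and miR-429-5p was too low. Total RNA came from lungs, eyes and testicles of male mice of the C57BL/6 strain, 8 to 12 weeks old, for which the labels name no treatment or altered allele, with 3 left and 3 right libraries per organ and 18 libraries in all. The labels state neither whether left and right libraries came from the same animals nor whether the 3 libraries of a group came from different ones, so n = 6 per organ may overstate the replication and p-values measure the spread between these libraries. The study set left organs against right organs, and its libraries also allow the 3 organs to be set against each other.

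Members of the family are known as markers of epithelial cells. They repress Zeb1 and Zeb2, transcription factors that silence E-cadherin, and these factors in turn repress the promoters of both clusters, a mutual inhibition that is a textbook switch between epithelial and mesenchymal states. A miRNA pairs with its targets mainly through its seed, so members with the same seed have largely the same predicted targets, while both seeds of the family have sites in Zeb1 and Zeb2, and in most hairpins one arm is loaded into the silencing complex and the other is degraded.

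The mature sequences are shown because their seeds divide the family in a way that differs from its genomic clusters. They are given 5′ to 3′ from RefSeq (GRCm38.p6), with the seed, bases 2 to 8, in capitals, first the 3p arms with one seed, then the 3p arms with the other, then the 5p arms.
mmu-miR-200b-3p: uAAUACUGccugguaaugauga
mmu-miR-429-3p: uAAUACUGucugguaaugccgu
mmu-miR-200c-3p: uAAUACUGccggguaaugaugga
mmu-miR-200a-3p: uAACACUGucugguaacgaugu
mmu-miR-141-3p: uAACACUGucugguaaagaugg
mmu-miR-200b-5p: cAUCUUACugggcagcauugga
mmu-miR-200a-5p: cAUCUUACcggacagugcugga
mmu-miR-200c-5p: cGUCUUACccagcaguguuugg
mmu-miR-141-5p: cAUCUUCCagugcaguguugga
mmu-miR-429-5p: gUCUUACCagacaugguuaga

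The seed AAUACUG occurred in miR-200b-3p, miR-429-3p and miR-200c-3p, and the seed AACACUG in miR-200a-3p and miR-141-3p. Each seed group therefore draws on both clusters, and no other mature miRNA among 1679 in the RefSeq table had either seed. Counted from 1 at the 5′ end, miR-200a-3p differed from miR-200b-3p at C4U, U9C, C17U and U22A, the first of which lies in the seed. Across clusters the relatives were closer: miR-200b-3p and miR-200c-3p differed over their first 22 bases only at U11G and A22G, and miR-200a-3p and miR-141-3p only at C17A and U22G. How the authors counted reads that match several members is not given in the sources used here, so the split of counts between such near-identical members is uncertain.

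On the minus strand of chromosome 4 (GRCm38.p6), Mir200b occupied chr4:156055681-156055750, Mir200a chr4:156054896-156054985 and Mir429 chr4:156053905-156053987, with 695 and 908 bases between neighbours. All 3 lay inside the gene Ttll10 and the noncoding gene Gm13648 on the same strand, and Mir429 fell in an exon of Gm13648 (GENCODE M21). On the minus strand of chromosome 6, Mir200c occupied chr6:124718322-124718390 and Mir141 chr6:124717914-124717985, with 336 bases between them. Both lay inside the antisense gene Gm15884, and Mir141 partly overlapped an exon of Gm29008.

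Library totals were 2538402 to 2790471 counts in lung, 2451484 to 2680204 in eye and 952608 to 1893132 in testicle, so that a count of 0 allows up to 3 counts, or 1.08 to 1.18 CPM (counts scaled to a common library total) in lung, 1.12 to 1.22 in eye and 1.58 to 3.15 in testicle. Intervals and such floors cover counting error only, since reads are not independent molecules. Marker miRNAs followed the organ labels, though the lists were chosen with earlier results of these data known, so this is no independent check. The 7 eye markers summed to 2753 to 6578 CPM in lung, 17763 to 28274 in testicle and 273366 to 307692 in eye. The 8 testicle markers summed to 31.6 to 270 CPM in lung and at least 105217 in testicle. The 6 lung markers summed to at least 68229 CPM in lung and at most 30991 in eye and 27336 in testicle. One lung library stood apart before any comparison: in right lung 1, 47 of 133 abundant miRNAs (median of at least 300 CPM in the other lungs) lay more than 1 log2 unit from that median, against 4 to 12 in the other 5 lungs. It also had the highest eye marker sum among the lungs. Left eye 1 was not unusual over all miRNAs (3 of 153) but had the highest level of every detected family member, and results that rest on either library are given without it as well.

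The family was most abundant in lung, less so in eye and least in testicle. Its members together made up 3.37% ± 0.577 of all miRNA counts in lung, 0.608% ± 0.178 in eye and 0.257% ± 0.0473 in testicle (SD, n = 6 each). The shares ran from 2.31% to 3.87% in lung, from 0.502% to 0.964% in eye and from 0.197% to 0.312% in testicle, and the organs did not overlap. Right lung 1 had the lowest share among the lungs and left eye 1 the highest among the eyes, both at the edge facing the other organ. In bulk tissue such as this, fewer epithelial cells and less of a miRNA per cell cannot be told apart. In every organ nearly all of the family's counts came from 3p arms, with 98.5% ± 0.243 in lung, 98.0% ± 0.224 in eye and 98.0% ± 0.783 in testicle.

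**Figure D1:**
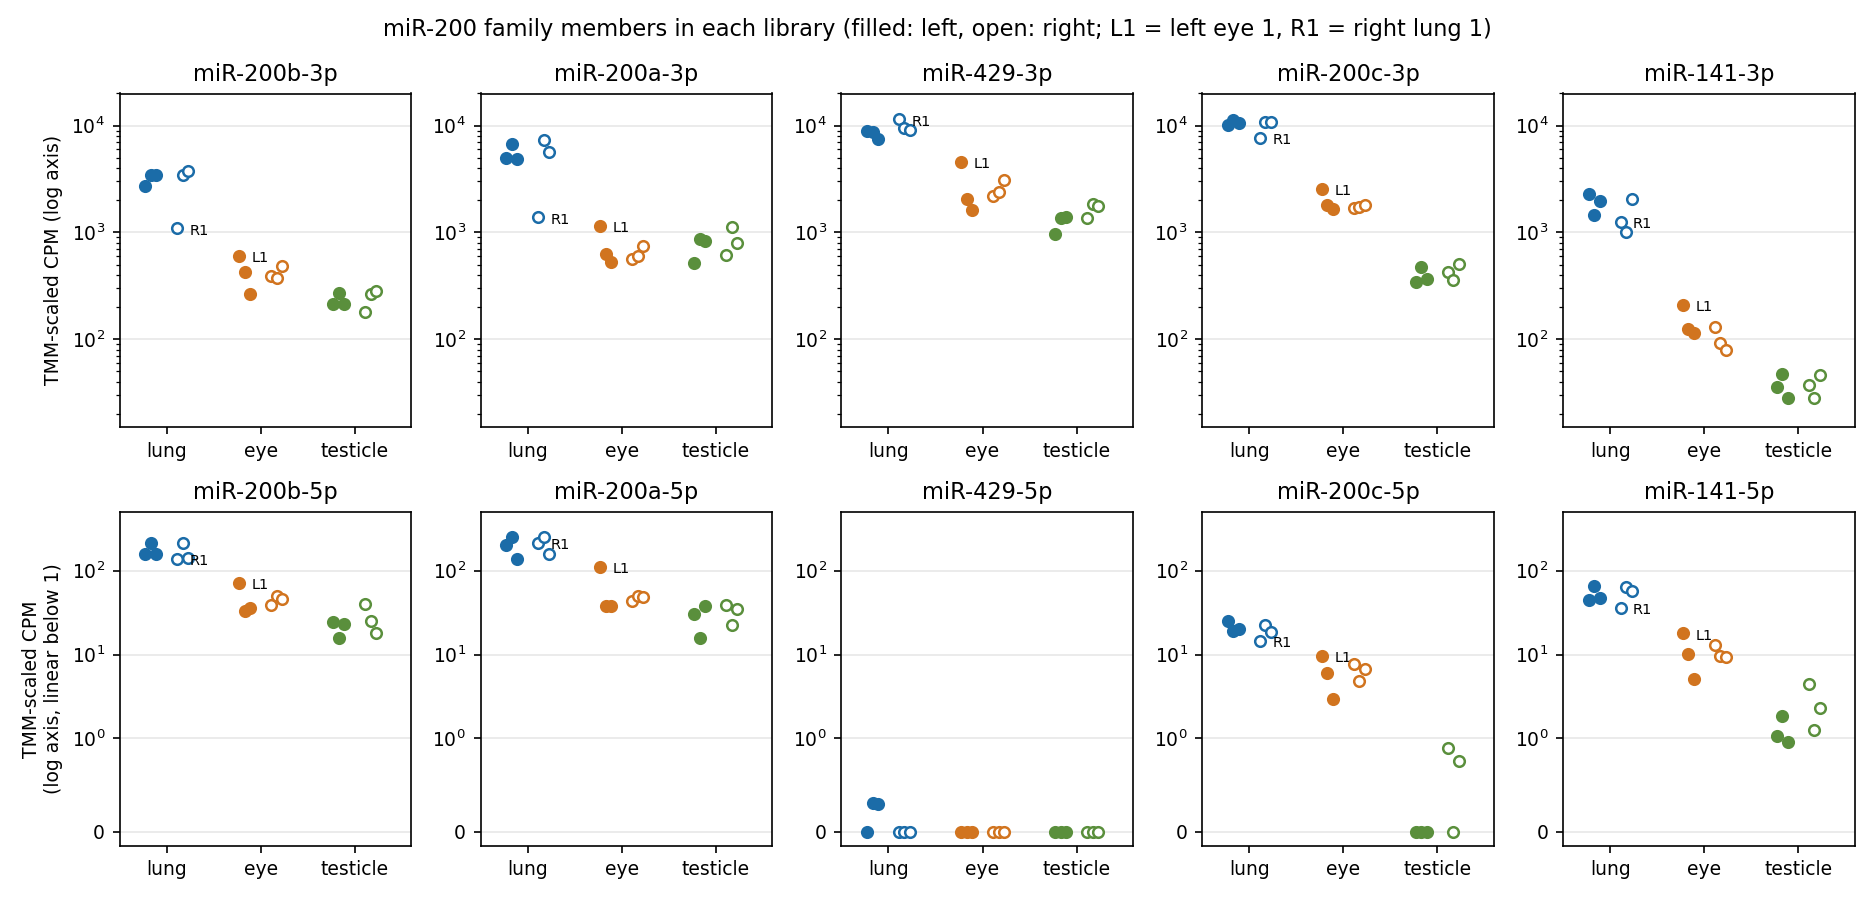
Level of each family member in each library, in CPM scaled by the trimmed mean of M values (TMM), on a log axis that is linear below 1 in the lower row. Each point is a library, filled for left and open for right organs. All 6 lung libraries lie above all 6 eye libraries for the 9 members tested. Eye and testicle do not overlap for 4 of the 9 members and overlap for the others, among them miR-200a-3p.

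The prefix mmu marks the mouse miRNA. Levels below are TMM-scaled CPM, given as lowest, median and highest of 6 libraries. The mature miRNAs are 21 to 23 bases long and were not scaled by length. In the chromosome 6 cluster, mmu-miR-200c-3p ranged over 7631, 10633 and 11364 CPM in lung, 1646, 1771 and 2537 in eye and 345, 395 and 509 in testicle. mmu-miR-141-3p, its neighbour with the other seed, had 1011, 1709 and 2273 CPM in lung, 78.4, 119.6 and 209 in eye and 28.0, 36.1 and 47.3 in testicle. For both, every lung library lay above every eye library and every eye library above every testicle library.

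The 5p arms of this cluster were scarce. mmu-miR-141-5p had 35.9, 52.4 and 66.3 CPM in lung, 5.18, 9.94 and 17.9 in eye and 0.965, 1.57 and 4.50 in testicle. mmu-miR-200c-5p had 14.7, 19.5 and 25.4 CPM in lung and 2.91, 6.45 and 9.68 in eye, and in testicle it had 1 count in each of right testicle 1 and right testicle 3 and none in the other 4 libraries. That is 2 counts over all testicle libraries, under the floor of 3. A count of 0 in left testicle 1 allows up to 3.15 CPM of the library total, near the lowest eye library at 3.44 on that scale. With counts of 0 and 1 in testicle, eye and testicle cannot be ordered library by library with confidence for mmu-miR-200c-5p.

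In the chromosome 4 cluster the lung again stood clear of both other organs, while eye and testicle ran into each other. mmu-miR-429-3p had 7488, 8980.2 and 11445 CPM in lung, 1614, 2306 and 4545 in eye and 976, 1382 and 1836 in testicle. mmu-miR-200b-3p had 1094, 3456 and 3801 CPM in lung, 265, 406 and 606 in eye and 181, 240.1 and 285 in testicle. mmu-miR-200a-3p had 1381, 5325 and 7360.3 CPM in lung, 523, 614 and 1158 in eye and 520.4, 812 and 1113 in testicle, so that its eye and testicle libraries covered nearly the same range. The lowest lung value of both mmu-miR-200b-3p and mmu-miR-200a-3p was that of right lung 1, at less than the next lung by a wide margin (2697 and 4906 CPM).

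Among the 5p arms of the cluster, mmu-miR-200a-5p had 137, 207 and 254 CPM in lung, 37.6, 46.2 and 112 in eye and 15.6, 32.5 and 38.7 in testicle. mmu-miR-200b-5p had 138, 158 and 215 CPM in lung, 32.7, 42.5 and 71.0 in eye and 15.6, 23.9 and 40.5 in testicle. mmu-miR-429-5p was all but absent from the counts, with 1 count in left lung 2, 1 in left lung 3 and none in any other library. The counts allow at most 0.417 CPM of it over the testicle libraries and 0.242 CPM over the eye libraries (upper ends of 95% exact Poisson intervals).

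The order of the members differed between organs. In lung, miR-200c-3p was the most abundant member at 10237.5 ± 1331 CPM (SD, n = 6), above miR-429-3p at 9191 ± 1303 in 5 of 6 libraries, a gap within their spread, and the exception was right lung 1. In eye, miR-429-3p led at 2646 ± 1046 CPM and lay above miR-200c-3p (1875 ± 331) in 5 of 6 libraries, again within the spread. In testicle, miR-429-3p led at 1453 ± 317 CPM and miR-200a-3p came second at 789 ± 208, above miR-200c-3p at 413 ± 67.6, each step holding in 6 of 6 libraries. MiR-200b-3p had rank 4 and miR-141-3p rank 5 in each of the 3 organs, although miR-141-3p exceeded miR-200b-3p in 1 lung library, right lung 1.

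Between lung and eye, all 9 tested members were higher in lung by edgeR's quasi-likelihood test with Benjamini-Hochberg adjustment, where 24.5% of all tested miRNAs were higher. Their median log2 fold change was 2.27, against -0.00 over all tested miRNAs. In every member each lung library exceeded each eye library, which 17.3% of all tested miRNAs did. MiR-141-3p changed most among the members, 13.6-fold, or 3.76 on the log2 scale (SE 0.27; edgeR adjusted p 2.1e-09). MiR-200a-3p followed at 2.88 (SE 0.35; edgeR adjusted p 1.2e-06), miR-200b-3p at 2.82 (SE 0.29; 1.9e-07) and miR-200c-3p at 2.45 (SE 0.16; 9.7e-10). MiR-429-3p changed least among the 3p arms, at 1.79 (SE 0.22; edgeR adjusted p 1.9e-06), and the 5p arms ranged from 1.66 for miR-200c-5p to 2.27 for miR-141-5p. Without right lung 1 the count was again 9, with miR-200a-3p at 3.30 and miR-200b-3p at 3.21, and without left eye 1 it was 9 as well. Without right eye 2 the fold changes of all 9 members were larger, miR-141-3p to 4.49 against eye and 6.12 against testicle. Eye counts enter lung against testicle only through the scaling and the shared estimate of spread, whose part in this was not tested.

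Between lung and testicle, all 9 tested members were again higher in lung, where 27.4% of all tested miRNAs were higher, and no member overlapped (18.1% of all tested). Their median log2 fold change was 3.65, against -0.90 over all tested miRNAs. The chromosome 6 cluster differed most. MiR-141-3p was 44.6-fold higher, or 5.48 on the log2 scale (SE 0.29; edgeR adjusted p 6.7e-11). MiR-200c-3p was 24.8-fold higher, or 4.63 (SE 0.18; edgeR adjusted p 6.0e-12). MiR-141-5p was higher by 4.77 (SE 0.37; edgeR adjusted p 5.5e-09), with 960 counts in lung and only 15 in testicle. MiR-200c-5p had 362 counts in lung and 2 in testicle, a ratio of counts per library total of 100.2 with a 95% counting interval of 27.5 to 831, so its fitted value of 6.85 is not a bound. The chromosome 4 members lay between 2.67 (miR-429-3p, SE 0.23; edgeR adjusted p 2.0e-08) and 3.65 (miR-200b-3p, SE 0.30; edgeR adjusted p 1.1e-08).

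Between eye and testicle, 8 of 9 tested members were higher in eye, where 40.2% of all tested miRNAs were higher, and the differences were smaller, with a median log2 fold change of 0.92 against 0.05 over all tested miRNAs. The 3p arms of chromosome 6 differed clearly: miR-200c-3p by 2.18 (SE 0.16; edgeR adjusted p 2.3e-09) and miR-141-3p by 1.72 (SE 0.25; edgeR adjusted p 8.9e-06). MiR-141-5p differed by 2.50 (SE 0.39; edgeR adjusted p 1.8e-05), but had 171 counts in eye and only 15 in testicle, 1 to 5 per testicle library. MiR-200c-5p had 99 counts in eye against 2 in testicle, a ratio of 28.7 with a 95% counting interval of 7.74 to 240.4. On the chromosome 4 side, miR-200b-5p (0.92), miR-429-3p (0.88), miR-200a-5p (0.88) and miR-200b-3p (0.83) had edgeR adjusted p-values between 0.0015 and 0.016. MiR-200a-5p lost its call (edgeR adjusted p up to 0.092) without left lung 1, left lung 2, right lung 1, right lung 2, left eye 1, right eye 2, right eye 3, right testicle 1 or right testicle 3. MiR-200b-3p lost it without left lung 2, right eye 3 or right testicle 1 (up to 0.099), and miR-200b-5p without right testicle 3 (0.063). MiR-200a-3p did not pass (-0.17, SE 0.32; edgeR adjusted p 0.65), and its sign was positive with 2 other scalings. Each eye library exceeded each testicle library in 4 of the 9 members and in 33% of all tested miRNAs, and 1 of the 4 is miR-200c-5p, whose testicle values lie under the floor. The comparisons between organs share libraries, so they are not independent of each other.

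**Figure D2:**
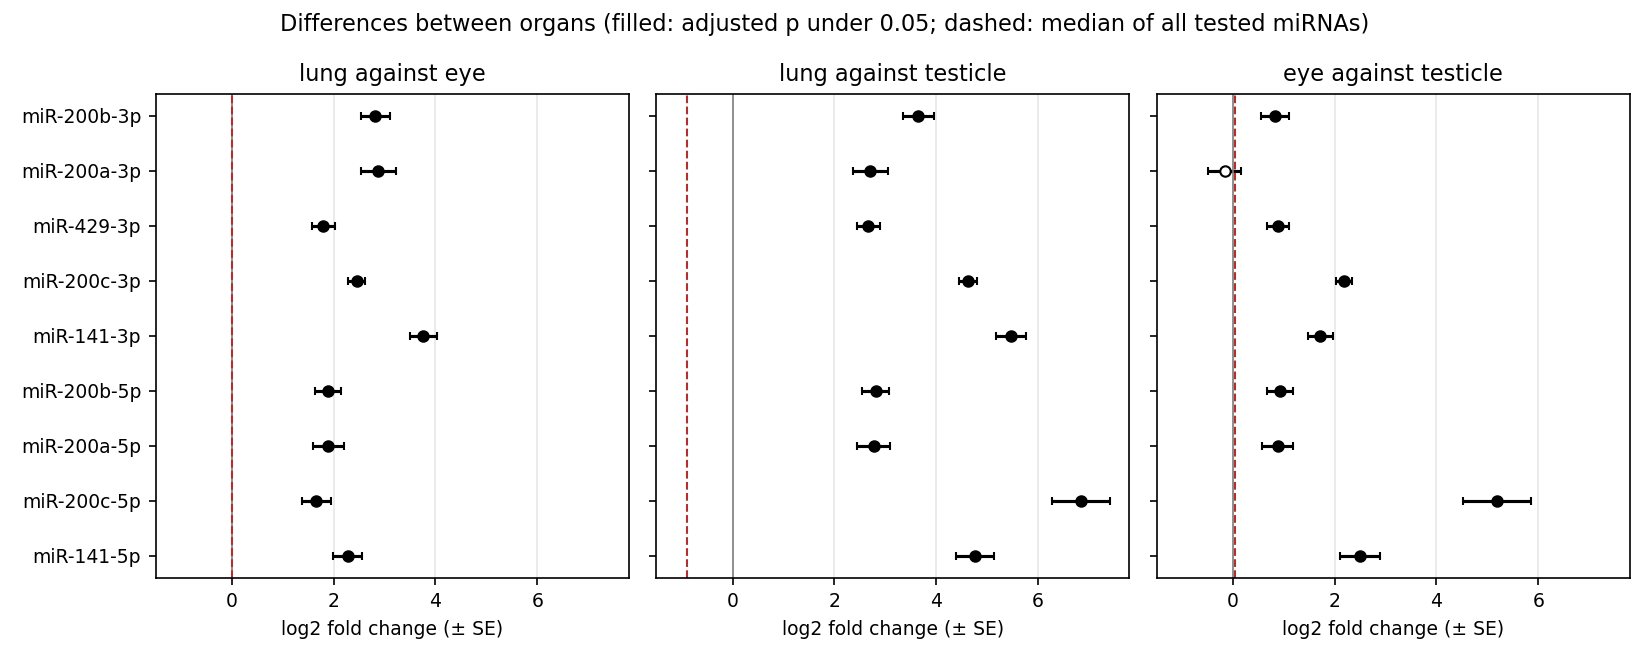
Log2 fold change of each tested member between organs, with its SE, from edgeR's quasi-likelihood fit. Filled points have an adjusted p under 0.05 and the dashed line is the median over all tested miRNAs; only miR-200a-3p between eye and testicle is open.

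Every library followed the order lung above eye above testicle for 4 members, both arms of miR-200c and of miR-141, while 2.65% of all tested miRNAs did. For miR-200c-5p the testicle end of that order rests on counts of 0 and 1, so it is not a measured order. For miR-141-5p the testicle end rests on 1 to 5 counts per library. With CPM of the library totals in place of TMM-scaled CPM the same order held for 8 members, all but miR-200a-3p, and for 4.83% of all tested miRNAs. The overlap of eye and testicle in the chromosome 4 cluster therefore depended on the scaling for miR-200b-3p, miR-429-3p, miR-200a-5p and miR-200b-5p.

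Ratios of counts within a library do not depend on that scaling. The 3p counts of the chromosome 4 cluster exceeded those of the chromosome 6 cluster by 1.46-fold in lung (geometric mean; 1.27 to 1.71), 1.82-fold in eye (1.37 to 2.30) and 5.46-fold in testicle (4.49 to 8.24). Every testicle library lay above every lung and eye library, whereas lung and eye overlapped. As a share, the chromosome 4 cluster supplied 59.3% ± 2.64 of the family's 3p counts in lung, 64.4% ± 4.68 in eye and 84.3% ± 2.82 in testicle. No p is given for these sums over members.

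**Figure D3:**
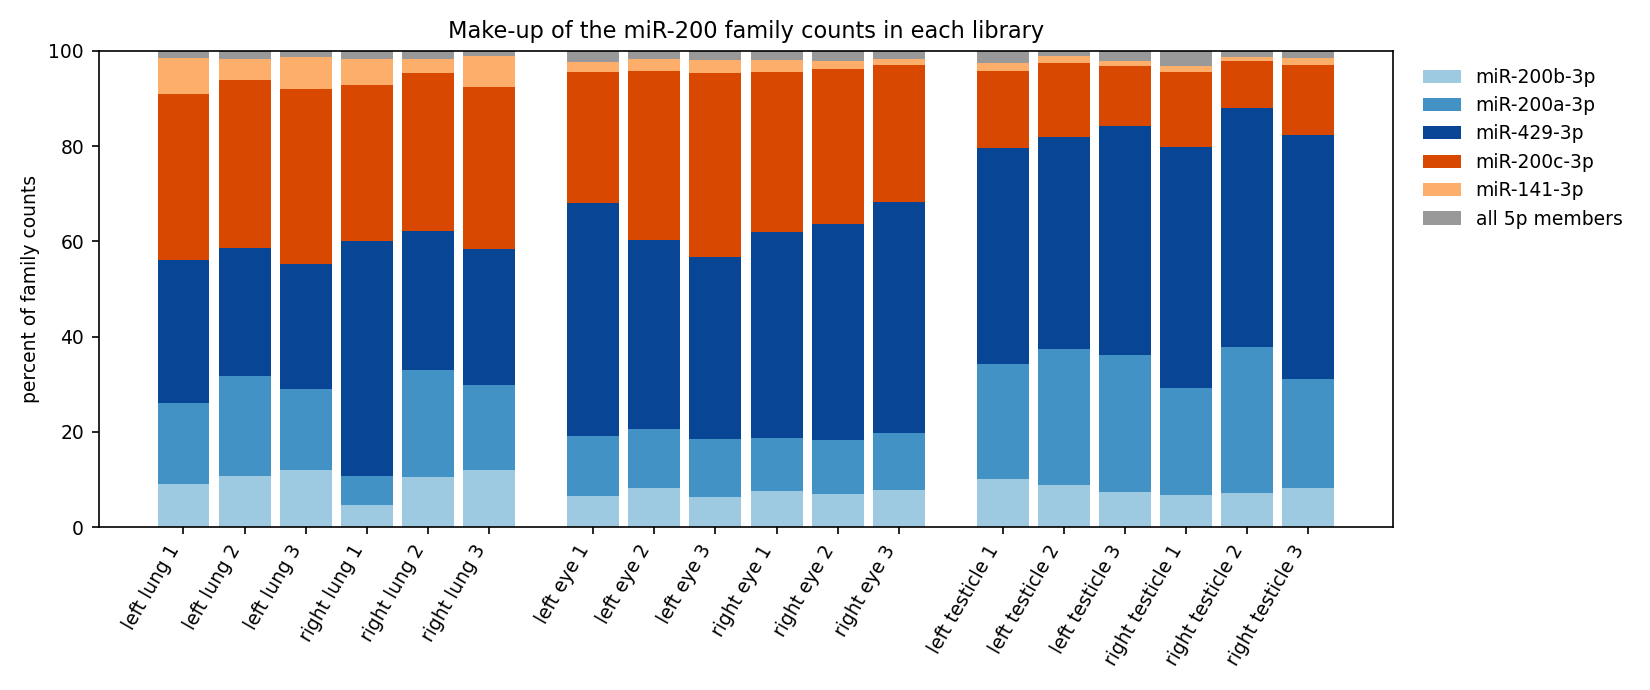
Share of each 3p member, and of all 5p members together, in the family's counts, in percent, for each of the 18 libraries. Blue shades are the chromosome 4 cluster and orange shades the chromosome 6 cluster; the orange part is smallest in the testicle libraries, and miR-429-3p takes 49.3% in right lung 1.

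Grouped by seed, the balance between organs was another. The members with the seed AAUACUG held 77.1% ± 5.57 of the 3p counts in lung, 85.7% ± 0.889 in eye and 72.0% ± 3.13 in testicle. All 6 eye libraries lay within 84.7% to 86.7%, above every testicle library (68.3% to 75.4%), and 5 of the 6 lung libraries lay below every eye library. The remaining lung library, right lung 1, had 88.5%, above every eye library, against 74.1% to 75.8% in the other 5 lungs.

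For 22 ratios between single members, exact two-sided permutation tests compared the organs, 6 libraries against 6, where the smallest possible p is 0.002165. Their p-values were adjusted over 33 ratios, which include sums over members and ratios with a nearly absent 5p arm for which no p is given here. Between organs 11 of the 22 had an adjusted p under 0.05, 5 of 8 between lung and eye, 2 of 7 between lung and testicle and 4 of 7 between eye and testicle. The weakest of the 11, miR-200b-3p over miR-429-3p between lung and eye, had an adjusted p of 0.049 (exact permutation). Such a value also depends on the low p-values not given here, and the adjustment was not repeated over the 22 alone.

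Neighbours in a cluster did not keep one ratio across organs. MiR-200c-3p exceeded miR-141-3p by 6.33-fold in lung (4.51 to 10.8), 15.6-fold in eye (12.1 to 23.0) and 11.2-fold in testicle (9.63 to 12.8), and lung did not overlap with eye. The log2 difference was -1.30 between lung and eye (exact permutation p = 0.0022, adjusted 0.0079), -0.82 between lung and testicle (p = 0.0065, adjusted 0.018, exact permutation) and 0.48 between eye and testicle (p = 0.0087, adjusted 0.020, exact permutation). MiR-141-3p thus took a larger part of its cluster in lung than in the other organs.

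Within the chromosome 4 cluster, miR-200b-3p stood at 0.605 of miR-200a-3p in lung (0.472 to 0.792), 0.606 in eye (0.506 to 0.688) and 0.308 in testicle (0.238 to 0.415). The testicle libraries overlapped with neither other organ, with a log2 difference of 0.98 for lung and 0.98 for eye against testicle (exact permutation p = 0.0022, adjusted 0.0079 in both). Lung and eye differed by -0.00 (exact permutation p = 0.998, adjusted 0.998), and leaving out single libraries moved this value between -0.08 and 0.07.

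Set against miR-429-3p, miR-200a-3p stood at 0.504 in lung, 0.272 in eye (0.245 to 0.324) and 0.538 in testicle (0.443 to 0.637), and eye and testicle did not overlap (log2 difference -0.99; exact permutation p = 0.0022, adjusted 0.0079). Left lungs 1, 2 and 3 had ratios of 0.559, 0.774 and 0.655, right lungs 2 and 3 had 0.769 and 0.626, and right lung 1 had 0.121. With that library the log2 difference between lung and eye was 0.89 (exact permutation p = 0.069, adjusted 0.094), and without it 1.31 (adjusted 0.0051, exact permutation). MiR-200b-3p over miR-429-3p was 0.305 in lung, 0.164 in eye and 0.166 in testicle, with a log2 difference of 0.89 between lung and eye (exact permutation p = 0.028, adjusted 0.049; 1.23 and adjusted 0.0051 without right lung 1). Leaving out any other single lung library, or any eye library, took that adjusted p above the threshold, to at most 0.10. Between lung and testicle the difference was 0.88 (exact permutation p = 0.041, adjusted 0.062), and 1.22 without right lung 1 (adjusted 0.0051, exact permutation).

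**Figure D4:**
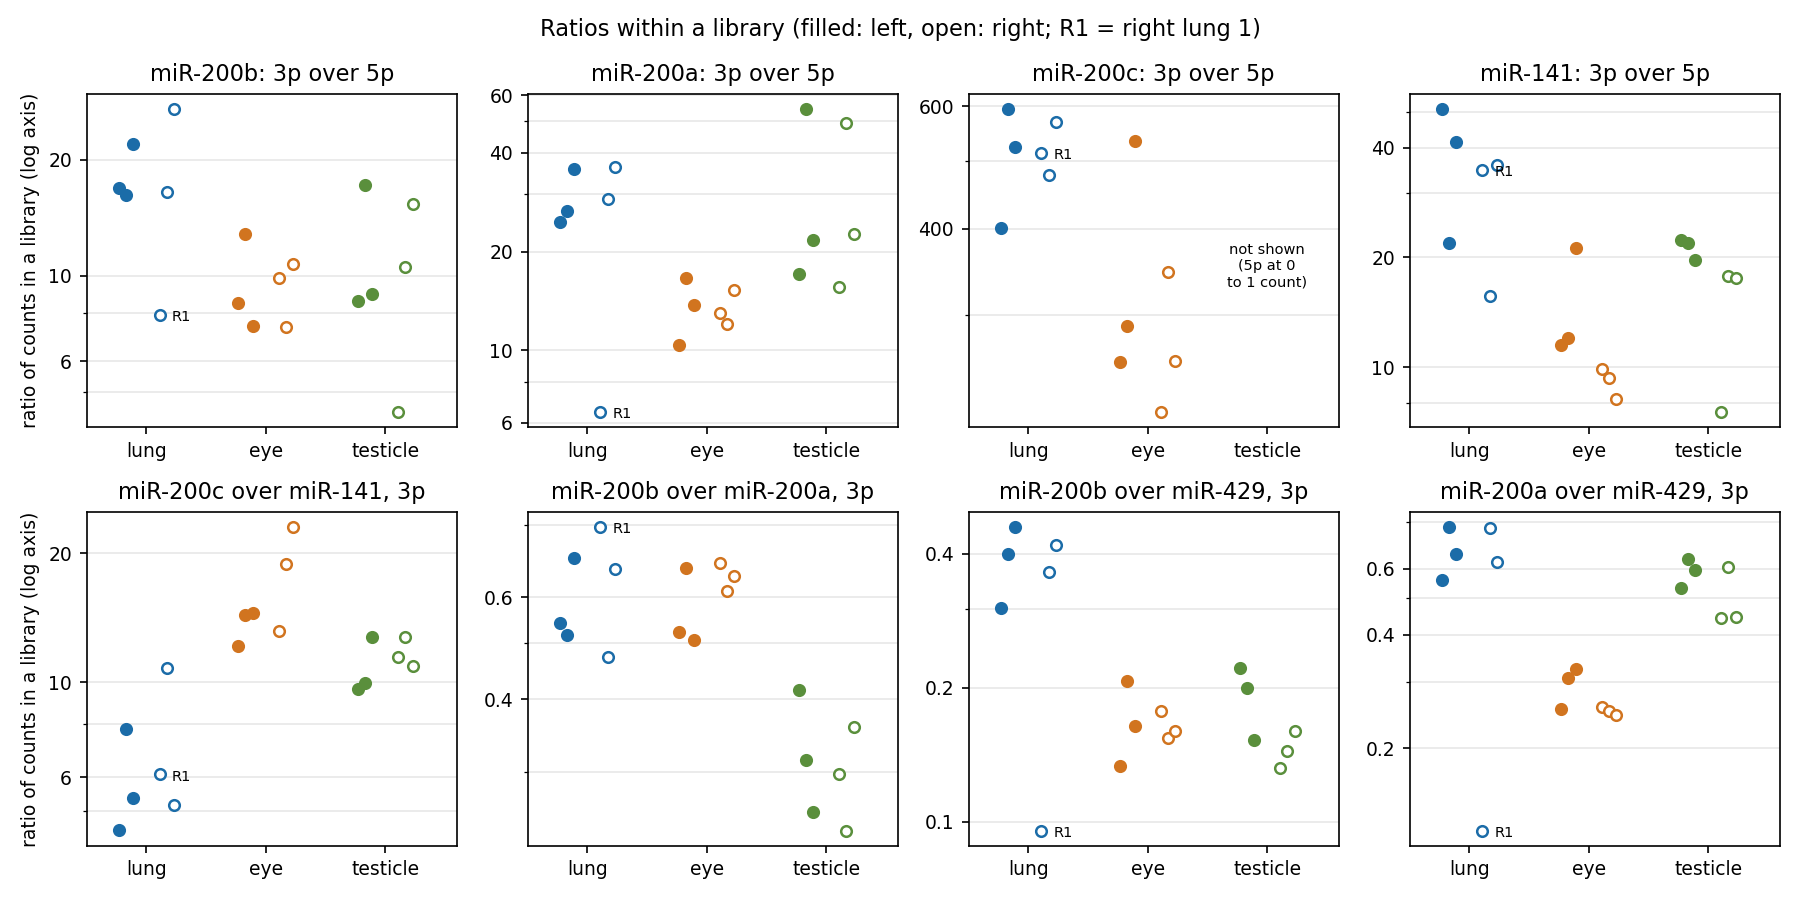
Ratio of the counts of the named members within each library, on log axes, filled for left and open for right organs. Right lung 1 lies far below the other 5 lungs for miR-200a 3p over 5p, miR-200b over miR-429 and miR-200a over miR-429; testicle libraries lie below all others for miR-200b over miR-200a.

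The balance of the arms is shown on 2 hairpins, 5′ to 3′ from RefSeq (GRCm38.p6) with both mature arms in capitals, one in which the 5p arm was nearly absent and one in which it was counted in every library.
Mir429: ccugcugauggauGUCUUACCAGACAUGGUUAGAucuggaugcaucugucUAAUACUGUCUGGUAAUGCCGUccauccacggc
Mir200a: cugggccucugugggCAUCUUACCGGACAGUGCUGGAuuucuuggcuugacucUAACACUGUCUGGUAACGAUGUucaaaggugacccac

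For miR-429 the 3p arm had 164213 counts in lung, 41719 in eye and 11292 in testicle, against 2, 0 and 0 counts of the 5p arm. Set against a floor of 3 counts over the organ, the 3p arm was at least 13906-fold higher in eye and at least 3764-fold higher in testicle, and in lung the ratio had a 95% counting interval of 22729 to 677990. The miR-200c hairpin also favoured its 3p arm, with 509-fold more 3p than 5p counts in lung (400.4 to 595) and 303-fold in eye (218 to 535), a log2 difference of 0.75 (exact permutation p = 0.011, adjusted 0.024). Without right lung 1 and left lung 2 it was 0.69 (adjusted 0.055, exact permutation). In testicle it had 3173 counts of the 3p arm and 2 of the 5p arm.

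The other 3 hairpins were less one-sided. For miR-141 the 3p arm exceeded the 5p arm by 31.1-fold in lung (15.6 to 51.1), 11.4-fold in eye (8.20 to 21.2) and 16.8-fold in testicle (7.55 to 22.3). The log2 difference between lung and eye was 1.44 (exact permutation p = 0.0043, adjusted 0.013), while that between lung and testicle was 0.89 (exact permutation p = 0.035, adjusted 0.057) and that between eye and testicle -0.56 (exact permutation p = 0.097, adjusted 0.12). Right testicle 1 was the lowest testicle library at 7.55, and without it eye and testicle differed with an adjusted p of 0.024 (exact permutation). Lung and testicle differed with an adjusted p of 0.011 without right lung 2 and of 0.014 with a pseudocount of 1 (exact permutation).

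For miR-200a the 3p arm exceeded the 5p arm by 23.3-fold in lung (6.48 to 36.3), 13.3-fold in eye (10.4 to 16.5) and 26.5-fold in testicle (15.6 to 54.6), and eye and testicle differed (log2 difference -0.99; exact permutation p = 0.0043, adjusted 0.013). In right lung 1 the ratio was 6.48, below every eye library, while the other 5 lungs had 24.7 to 36.3, above every eye library. The log2 difference between lung and eye was accordingly 0.80 with that library (exact permutation p = 0.071, adjusted 0.094) and 1.17 without it (adjusted 0.0051, exact permutation). For miR-200b the ratio was 16.6 in lung (7.90 to 27.1), 9.25 in eye (7.34 to 12.8) and 9.90 in testicle (4.43 to 17.2), with a log2 difference of 0.85 between lung and eye (exact permutation p = 0.017, adjusted 0.032). That call was lost, with an adjusted p of at most 0.060 (exact permutation), without left lung 1, 2 or 3, right lung 3, left eye 1 or 3, or right eye 1 or 2. Without right lung 1 the log2 difference between lung and eye was 1.06 (adjusted 0.0051, exact permutation). Between lung and testicle the difference was 0.75 (exact permutation p = 0.089, adjusted 0.11), and 0.96 without right lung 1 (adjusted 0.028, exact permutation). Depth was lowest in testicle, where the 5p arms of miR-200a and miR-200b had 25 to 46 and 23 to 45 counts per library, so counting error is largest there.

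In right lung 1 the members did not move together. MiR-200a-3p had 1381 CPM there, against 4906 to 7360.3 in the other 5 lungs, and miR-200b-3p had 1094, against 2697 to 3801. MiR-200c-3p had 7631 CPM, against 10249 to 11364, and miR-141-3p had 1252, within the 1011 to 2273 of the others. By contrast miR-429-3p, from the same cluster as the most reduced members, had 11445 CPM, above the 7488 to 9571 of the others, and miR-200a-5p had 213, within 137 to 254. Of the 9 tested members 6 were lowest in right lung 1, where 32.7% of all tested miRNAs were lowest of the 6 lungs, and 1 was highest, as 20.7% were. Whether the state of that library set these values was not tested.

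In left eye 1 they did move together. All 9 tested members were highest there among the 6 eyes, which 16.4% of all tested miRNAs were. MiR-429-3p had 4545 CPM in left eye 1, against 1614 to 3071 in the other 5 eyes, and miR-200a-5p had 112, against 37.6 to 50.04. MiR-200a-3p had 1158 CPM, against 523 to 751, and miR-200c-3p 2537, against 1646 to 1815. Each member there was at 1.46 to 2.57 times the median of the other eyes. The summed lung and testicle markers in that library were 30991 and 3.73 CPM, against 25528 to 29542 and 15.5 to 48.5 in the other eyes, and the sum of 12 other epithelium-associated miRNAs was 12469.9 CPM, within 11378 to 14992. The part of the higher lung markers in this was not tested.

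**Figure D5:**
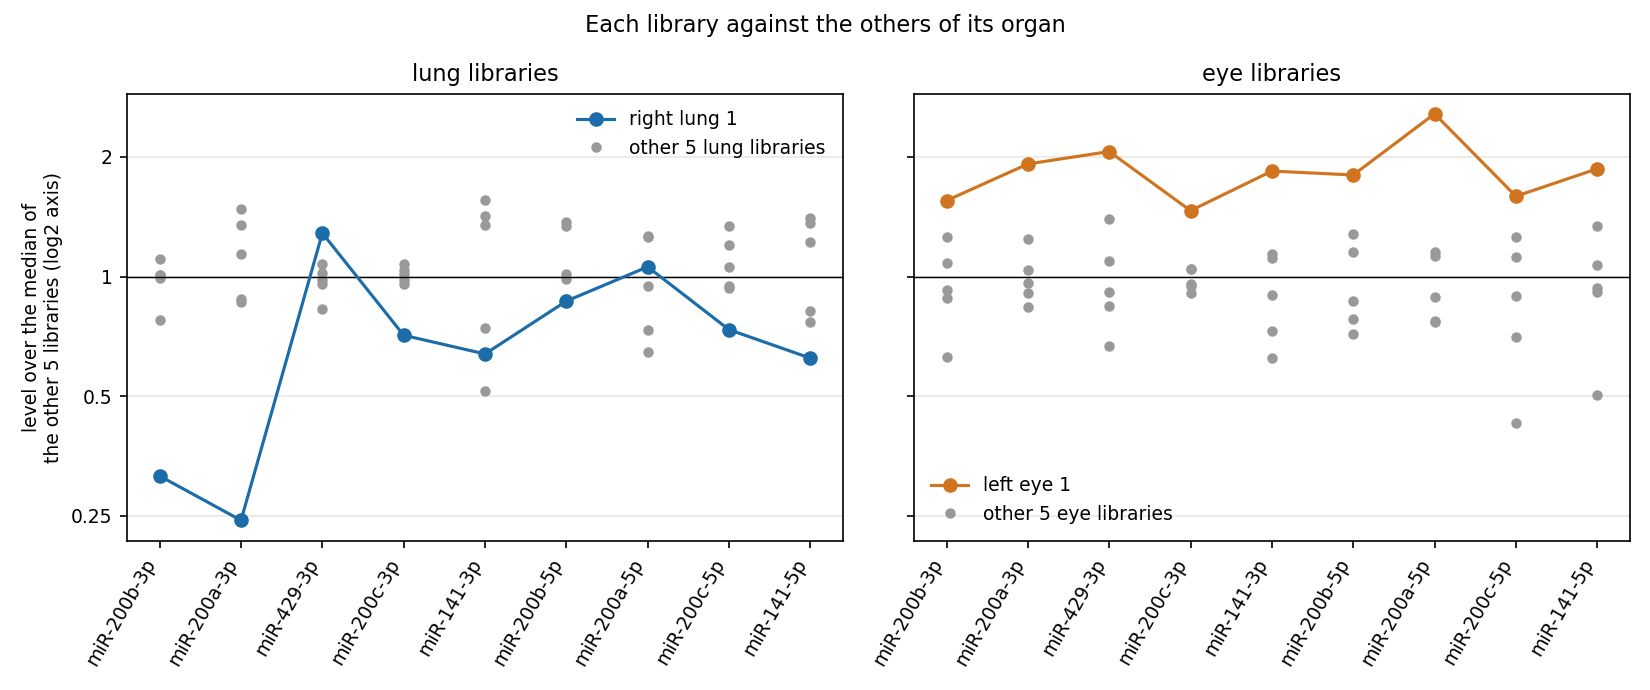
Level of each tested member in each lung and eye library over the median of the other 5 libraries of that organ, from TMM-scaled CPM on a log2 axis. In right lung 1 miR-200a-3p and miR-200b-3p lie far below the other lungs while miR-429-3p lies above them; in left eye 1 all 9 members lie above every other eye.

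No member passed the test between left and right organs. By edgeR's quasi-likelihood test 0 of 9 tested members were called in lung (0% of 430 miRNAs tested), 0 of 9 in eye (0% of 487) and 0 of 7 in testicle (0% of 464). At an unadjusted p under 0.05, 1, 18 and 36 miRNAs passed, none of them members, and DESeq2 called 0, 1 and 1 miRNAs and no member. The lowest member p-values were 0.18 for miR-429-3p in lung (log2 fold change -0.37, SE 0.25, left against right), 0.077 for miR-141-3p in eye (0.60, SE 0.30) and 0.23 for miR-429-3p in testicle (-0.23, SE 0.17), all unadjusted from edgeR. MiR-141-3p had 113, 126 and 209 CPM in left eyes and 78.4, 91.7 and 129 in right eyes, which overlap. With 3 libraries a side these values do not show that the sides are alike. No member passed the test of whether the side difference varied between organs (0 of 9 by edgeR, 0% of 642 tested, 21 at an unadjusted p under 0.05; 0 by DESeq2).

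Other miRNAs that are associated with epithelia had other orders of the organs in their mean levels. Of 12 listed, 9 were tested. In lung against eye 0 were higher and 5 lower, where 24.5% of all tested miRNAs were higher and 35.4% lower. Against testicle, 2 were higher and 4 lower in lung (27.4% and 49.1% of all), and 4 were higher and 4 lower in eye (40.2% and 39.1% of all). These counts against testicle lie near the shares over all tested miRNAs. MiR-375-3p, known from endocrine and secretory epithelia, had 3536 ± 880.1 TMM-scaled CPM in lung, 3382 ± 452 in eye and 15656 ± 2875 in testicle (SD, n = 6 each), with log2 fold changes of 0.06 between lung and eye (edgeR adjusted p 0.79) and -2.14 between lung and testicle (edgeR adjusted p 1.2e-08). MiR-31-5p had 1507 ± 466 CPM in lung, 6309 ± 456 in eye and 436 ± 54.1 in testicle. MiR-192-5p had 751 ± 134 CPM in lung, 665 ± 103 in eye and 1172 ± 152 in testicle. MiR-205-5p, known from stratified epithelia, had 8.52 ± 12.49 CPM in lung, 780.4 ± 166 in eye and 2.57 ± 0.951 in testicle; it was added for its values, not by its abundance. In lung, left lung 2 had 40.4 CPM of the library total and the other 5 lungs 1.16 to 8.41.

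Of 9 mesenchymal miRNAs listed, 8 were tested, of which 5 were higher and 0 lower in lung than in eye, where 24.5% of all tested miRNAs were higher and 35.4% lower. Against testicle, 3 were higher and 1 lower in lung (27.4% and 49.1% of all), and 0 were higher and 4 lower in eye (40.2% and 39.1% of all). MiR-143-3p, known from smooth muscle, had 36179 ± 4803 CPM in lung, 18863 ± 2626 in eye and 35153 ± 3055 in testicle, and miR-199a-3p, known from fibroblasts, had 2701 ± 524 CPM in lung, 1018 ± 200 in eye and 1330.2 ± 354 in testicle. MiR-199a-5p had 1664 ± 776 CPM in lung, 1299 ± 199 in eye and 1454 ± 524 in testicle, and passed in none of the 3 comparisons. Another list, of miRNAs that mark multiciliated airway cells and male germ cells, had 7 of 7 tested members higher in lung than in eye (24.5% of all tested miRNAs), 6 lower in lung than in testicle (49.1% of all) and 7 lower in eye than in testicle (39.1% of all). Its leading member miR-449a-5p had 9648 ± 3361 CPM in lung, 124 ± 27.9 in eye and 79660 ± 15019 in testicle. MiR-34b-3p had 2166 ± 815 CPM in lung, 171 ± 35.7 in eye and 32256 ± 9630.3 in testicle, and miR-34c-3p had 1169.7 ± 390 CPM in lung, 111 ± 14.8 in eye and 16986 ± 4459 in testicle.

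Among 307 other miRNAs with a mean of at least 50 CPM, 5 had the profile over the 18 libraries closest to the mean profile of the 3p members, measured as the root mean square difference of centred log2(CPM + 1). These were miR-150-5p (0.32 log2 units), miR-222-3p (0.41), miR-3074-2-3p (0.44), miR-24-2-5p (0.46) and miR-23a-3p (0.54), against a median of 2.19 over all 307. Family members themselves differed from the mean of the other 3p members by 0.31 (miR-200b-3p) to 0.95 (miR-141-3p). MiR-150-5p had 8999 ± 1755 CPM in lung, 1227 ± 215 in eye and 723 ± 168 in testicle, and is also one of the 6 lung markers above, listed there for leukocytes. The 18 libraries fall into 3 organs, so such likeness is mostly likeness of the 3 organ levels.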

How the data were processed

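The authors deposited raw counts of reads for each mature miRNA, 1 table for each of the 18 libraries, as the file headers show. The genome build was GRCm38.p6, per the submitters' processing notes; the aligner, the counting program and the treatment of reads that match several miRNAs were not given in the sources used here. Libraries were prepared by a BGI-500 procedure, per the labels' protocols. From the counts, edgeR 4.0.16 (R 4.3.3) gave TMM-scaled CPM and quasi-likelihood tests over the 642 of 1431 miRNAs kept by its filter, with 6 groups of organ and side, sides averaged, an adjusted p threshold of 0.05, and separate fits for left against right. Ratios within a library had 0.5 added to each count and were compared by exact permutation (scipy 1.17.1). DESeq2 1.42.0, other scalings, no filter, a pseudocount of 1, a replicate block and left-out libraries were alternatives. Both kinds of test were tested on simulated data. No 2 libraries of a group were duplicates (chi-square over degrees of freedom of at least 53.4 for 18 pairs). In 10 sets of names, none with a family member, counts were identical. The members and the lists were chosen with earlier results of these data known. All 10 members are named, with the 3 most abundant of the epithelial, of the mesenchymal and of the multiciliated and germ cell lists, and the 5 nearest profiles. The eye, lung and testicle marker lists are given as sums. MiR-205-5p was added after its values were seen. Mature and hairpin sequences came from RefSeq and matched all 10 members.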

Additional observations from a re-analysis of the deposited data

Results flagged for a closer look

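In 63 groups of 6 libraries (members, ratios and shares in each organ), 10 single values lay farther from the rest than Dixon's 95% limit for 6 values allows. Chance gives about 1 in 20 such groups, but the groups share libraries and members, so the 10 values are not independent. Of these, 5 were high values in left eye 1, in CPM of the library total: 1205 for miR-200a-3p, 116 for miR-200a-5p, 4728 for miR-429-3p and 2640 for miR-200c-3p, with a family share of 0.964%. In right lung 1 the log2 ratio of 3p to 5p counts of miR-200a was low at 2.70, as were miR-200b-3p over miR-429-3p at -3.39 and miR-200a-3p over miR-429-3p at -3.05, and the 3p sum with the seed AAUACUG over that with AACACUG was high at 2.94. In right testicle 1 the log2 ratio of 3p to 5p counts of miR-141 was low at 2.92.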

How the results depend on the processing

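The counts of members higher in lung than in eye (9) and than in testicle (9) were the same under all 29 alternatives run for each. In eye against testicle the count of 8 was 4 with right libraries only and 6 to 8 with single libraries left out. The log2 fold change of mmu-miR-200a-3p between eye and testicle turned positive with library sizes alone (0.081) and with left lung 1 as the TMM reference (0.38), and its edgeR or DESeq2 adjusted p was 0.15 to 0.93 over the alternatives. The scaling moved the median of all tested miRNAs as far as 0.51 for lung against eye, -0.31 for lung against testicle, and -0.12 and 0.56 for eye against testicle.

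Of all 11 ratios, 7 passed between lung and eye, 4 between lung and testicle and 8 between eye and testicle. These counts include sums over members and ratios with a nearly absent 5p arm. With single libraries left out the counts were 4 to 9, 4 to 6 and 7 to 9. With left or right libraries only they were 0, since the smallest p of 3 against 3 is 0.1. The passes of miR-429 3p over 5p do not measure arm balance, since its 5p arm had 2, 0 and 0 counts in lung, eye and testicle. That of miR-200c 3p over 5p between eye and testicle rests on 2 counts of the 5p arm in testicle. It was lost with a pseudocount of 1 (adjusted p 0.22, exact permutation). With the replicate block the lung and eye count was 4, and the calls of miR-200b 3p over 5p (adjusted p 0.051, exact permutation) and miR-200b over miR-429 (0.058) were lost. The libraries were not treated as paired, and the labels do not state which of them share an animal. Among libraries with the same replicate number, 4 of 9 left and right pairs (r -0.404 to 0.352) correlated above 0.1. Between organs 5 of 36 pairs did (r -0.188 to 0.292). Such correlations do not show whether animals are shared, so they do not settle the pairing. Differences in the family share between lung and eye, lung and testicle, and eye and testicle were 2.84, 3.25 and 0.411 percentage points with left libraries only and 2.68, 2.98 and 0.29 with right libraries only.

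Some uncalled log2 ratios changed sign, and the cause was not tested. MiR-200a 3p over 5p, lung against testicle, took 0.071 with left libraries only and 0.22 without right lung 1 and left lung 2. With 1 library left out it took -0.34 to 0.18, the highest without right lung 1. MiR-200a over miR-429 for that pair took 0.16, 0.27 and -0.22 to 0.32 under these settings, the highest again without right lung 1 alone. MiR-200b over miR-200a, lung against eye, took 0.045 with left libraries only and -0.078 to 0.071 with 1 left out. For eye against testicle, miR-200b 3p over 5p took 0.038 with right libraries only and -0.33 to 0.060 with 1 left out, and miR-200b over miR-429 took 0.17 and -0.076 to 0.074. MiR-200c 3p over 5p, lung against testicle, was -0.46 and took 0.33 with a pseudocount of 1, where each testicle library had 0 or 1 count of the 5p arm. Depth limits the 5p arms in testicle most.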
